A study of Homo sapiens with 12 samples.

Results

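Cadherins and the catenins that join them to actin were followed through the exon events of 2 human prostate cancer lines. The 8 genes were CDH1, CDH2, CDH3, CDH11, CTNNA1, CTNNB1, JUP and AFDN. An exon event was assigned to a gene if its strand, the length of its exon and the lengths of the introns on either side fitted that gene's annotation. In RNA-seq 53 of 114816 events belonged to 7 of the 8 genes. In RASL-seq, a targeted assay that ligates probe pairs across splice junctions, 2 of 2023 events belonged to AFDN alone. Neither table used here held an event of CTNNA1.

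The lines were GS689.Li, written GS689, and PC3E, derivatives of the PC3 prostate cancer line that are known for mesenchymal and epithelial character. Both were labelled wild type and grew in the same G418-containing medium without further treatment, and each had 3 libraries per assay. The labels do not say that the 3 came from separate cultures, so the p-values speak of library-to-library spread only, and that spread may be technical. The RNA-seq table gives its libraries as 2 numbered sets of 3, and its header names no line for either. Set 2 and set 1 are therefore described side by side, library by library, with no test and no line attached. Only RASL-seq compares the named lines here. RASL-seq table totals ran from 615758 to 954120 counts per library and RNA-seq table totals from 93842790 to 120853566. Of the 8 epithelial markers examined, OCLN was the 1 tested in RASL-seq. It was lower in GS689 (log2 change -1.65, SE 0.218, limma-voom adjusted p = 0.000242). VIM, a mesenchymal marker, was higher (log2 change 4.50, SE 0.139, limma-voom adjusted p = 3.52e-09).

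Classical cadherins are single-pass membrane proteins that bind cadherins of the neighbouring cell through calcium-dependent extracellular repeats. Their cytoplasmic tails hold beta-catenin (CTNNB1) or plakoglobin (JUP), which in turn bind alpha-catenin (CTNNA1) and through it the actin cytoskeleton. Afadin (AFDN) ties nectins, a second class of adhesion molecule, to the same filaments. Epithelia depend on E-cadherin (CDH1), and the exchange of E-cadherin for N-cadherin (CDH2) is a familiar feature of epithelial to mesenchymal transition.

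The sequences shown are those of the AFDN exons on which the splicing results turn. They come from GENCODE release 29 transcripts and are written 5′ to 3′. Positions are given on hg19, plus strand, as in the authors' event names. The 21 nt exon lies at chr6:168314083-168314103, the 45 nt exon at chr6:168294542-168294586, the 36 nt exon at chr6:168355138-168355173 and the 33 nt exon at chr6:168355141-168355173. Capitals mark the 3 bases that the 36 nt form has beyond the 33 nt form, which is identical from there on. All 4 are coding and keep the reading frame in length. The 21 nt exon is part of 1 of 22 annotated AFDN transcripts and the 45 nt exon of 6.
AFDN 21 nt exon: gaagtagaccaggttgaccag
AFDN 45 nt exon: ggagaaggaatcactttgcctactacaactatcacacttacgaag
AFDN 36 nt exon: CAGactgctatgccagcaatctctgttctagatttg
AFDN 33 nt exon: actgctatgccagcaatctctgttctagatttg

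In RNA-seq, CDH1 and CDH3 were both present in set 1 and close to absent in set 2, while CDH2 and CDH11 were higher in set 2. The level used is the sum of inclusion and skipping counts over a gene's events scaled to a common table total of 1e6 counts, called CPM here. A read can count in several events of a gene, so CPM serves to compare libraries and not genes. Bulk libraries cannot tell fewer cells that make an RNA from less RNA in each cell.

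CDH1, the epithelial cadherin, had 0.597, 1.34 and 0.638 CPM in set 2, against 106.8, 88.4 and 112 CPM in set 1. These rest on 56, 133 and 61 counts in set 2 and on 11632, 9963 and 13580 in set 1. All 3 set 2 libraries lay far below all 3 of set 1. By medians the level in set 2 was 167-fold lower, and between the closest libraries of the sets 66.0-fold lower. CDH3, the placental cadherin of basal epithelial cells, had 0.682, 1.85 and 0.889 CPM in set 2, against 128, 153 and 153 CPM in set 1. That is 172-fold lower by medians and 69.2-fold between the closest libraries. Library 2 was the highest of set 2 for both genes, as it was for 6 of 8 epithelial markers. Among these 6, CLDN4 had only 0.302 CPM there. EPCAM and KRT8 were highest in library 3. On hg19 the listed CDH1 exons span chromosome 16 from 68772200 to 68863700 and those of CDH3 from 68679539 to 68729826, and no other protein-coding gene stands between the 2 in the RefSeq annotation of GRCh38.p14.

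CDH2, the neural cadherin, had 147, 93.9 and 133 CPM in set 2, against 58.8, 38.5 and 54.8 CPM in set 1. The sets did not overlap, and the ratio of medians was 2.43. CDH11, a cadherin first known from osteoblasts and typical of mesenchymal cells, had 281, 281 and 197 CPM in set 2, against 49.9, 13.2 and 41.4 CPM in set 1. The ratio of medians was 6.79, the highest among the 7 genes. Its log2 value of 2.75 became 3.34 without library 1 of set 1 and lay between 2.33 and 3.14 in the other 10 alternatives. Library 2 of set 1 stood apart for CDH11, the highest library of its set being 3.77 times the lowest, whereas the same measure was at most 1.53 for the other 6 genes in set 1.

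CTNNB1, which encodes beta-catenin, the tail-binding catenin that also acts in Wnt signalling, differed least. It had 257, 244 and 253 CPM in set 2, against 204, 175 and 205 CPM in set 1, with a ratio of medians of 1.24. JUP, which encodes plakoglobin, a catenin shared with desmosomes, had 17.96, 29.02 and 20.4 CPM in set 2, against 44.5, 46.1 and 60.4 CPM in set 1. Every set 2 library was below every set 1 library, and by medians the level was 2.26-fold lower. AFDN had 14.3, 12.8 and 8.28 CPM in set 2, against 19.8, 17.4 and 21.2 CPM in set 1, 1.55-fold lower by medians.

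**Figure D1:**
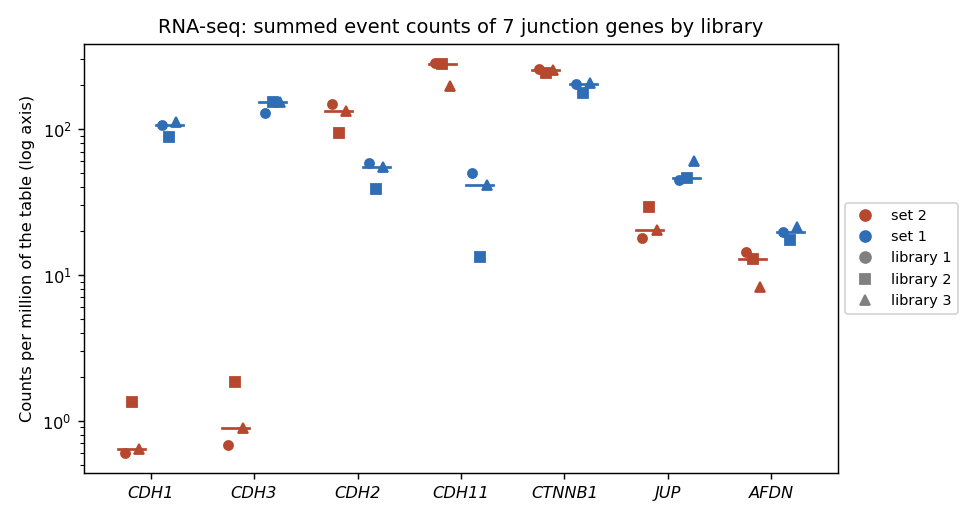
RNA-seq level of each gene in each library, in CPM on a log axis, with set 2 left of set 1. Points are libraries, marked by number, and bars are medians of 3. CDH1 and CDH3 sit between 0.597 and 1.85 in set 2 and between 88.4 and 153 in set 1. CDH2 and CDH11 are higher in set 2, at 93.9 to 281, than in set 1, at 13.2 to 58.8.

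All 7 genes had sets that did not overlap, which held for 49.7% of the 11978 genes whose libraries averaged 10 counts or more, so the lack of overlap alone says little. With a minimum of 2-fold between medians (log2 of CPM + 0.5) as well, 14.5% of all genes passed. CDH1, CDH3 and JUP passed as lower in set 2, where 5.91% of all genes did. JUP no longer passed without library 1 or library 3 of set 2, at log2 ratios of -0.88 and -0.96. CDH2 and CDH11 passed as higher, where 8.58% did. CTNNB1 and AFDN did not reach 2-fold. The median log2 ratio over all genes was 0.10. On this scale CDH1 was at -6.56 and CDH3 at -6.79, and 8 genes of the 11978, CDH3 among them, were as low as or lower than CDH3.

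By medians the direction was the same for all listed events of a gene. Such events are not independent, since a read can count in several and some share an exon. Every listed event had a skipping count in some library. For CDH1 and CDH3 those counts all came from set 1. For CDH2 they came from set 2 alone, except at the 112 nt exon. All 6 events of CDH1 were lower in set 2 without overlap, by 111-fold to 172-fold in medians. All 10 events of CDH3 were lower without overlap, the set 2 libraries holding 0 to 35 counts per event and the set 1 libraries 528 to 2469. All 8 CDH2 events were higher without overlap, with ratios of 2.11 to 2.70. In CDH11 10 of 10 events were higher and 9 did not overlap. The exception was a 147 nt exon of a non-coding transcript with at most 22 counts in any library. In CTNNB1 7 of 7 were higher and 6 did not overlap, at ratios of 1.09 to 1.31, and its 132 nt 5′ UTR exon overlapped. All 4 JUP events were lower by 2.10-fold to 3.52-fold without overlap. All 8 AFDN events were lower by 1.29-fold to 2.06-fold, and 6 did not overlap.

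**Figure D2:**
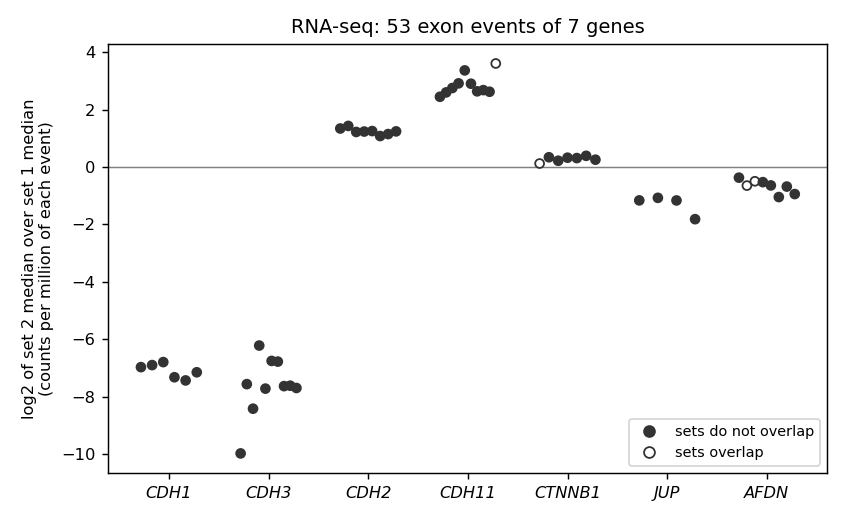
Each of the 53 RNA-seq events by gene, as the log2 of the set 2 median over the set 1 median of its CPM. Within a gene the events run from low to high genomic position. Filled points have sets that do not overlap. Events of a gene lie on 1 side of zero throughout, and the lowest CDH3 point rests on a median of 1 count in set 2.

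Levels of different genes were compared on a scale per length. Counts of each event were divided by the effective lengths of the authors' table, expressed per kb and 1e6 table counts, and the median event stands for the gene. In set 2 the order by medians was CTNNB1 at 202, CDH11 at 168, CDH2 at 79.0, JUP at 31.9, AFDN at 8.99, CDH1 at 0.501 and CDH3 at 0.388. Neighbours in this order did not overlap, except CDH1 and CDH3. In set 1 it was CTNNB1 at 162, CDH1 at 97.9, CDH3 at 84.5, JUP at 77.9, CDH2 at 32.8, CDH11 at 27.9 and AFDN at 14.6. There CDH1 overlapped CDH3, CDH3 overlapped JUP, CDH2 overlapped CDH11 and CDH11 overlapped AFDN. CTNNB1 headed both orders.

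The 4 cadherins together had 259, 224 and 202 on this scale in set 2, against 243, 196 and 249 in set 1. The summed level overlapped between the sets, while its make-up did not. CDH2 and CDH11 made up 99.7%, 99.1% and 99.6% of it in set 2, against 28.2%, 15.6% and 24.4% in set 1. CDH11 was the largest part in every set 2 library, at 60.5% to 75.2%. In set 1 CDH1 held 40.2%, 41.3% and 41.1%, and CDH3 held 31.5%, 43.1% and 34.6%. These shares depend on which exons of each gene are listed. Within a library, beta-catenin stood at 7.84, 4.33 and 5.83 times plakoglobin in set 2, against 2.08, 1.65 and 1.65 times in set 1.

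**Figure D3:**
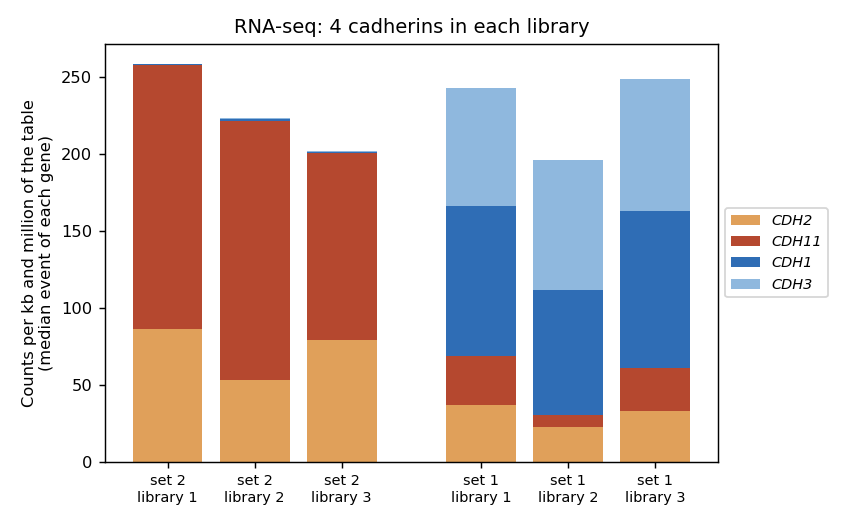
Stacked levels of 4 cadherins in each RNA-seq library, in counts per kb and 1e6 counts of the table (median event of each gene), set 2 on the left. Total height runs from 202 to 259 in set 2 and from 196 to 249 in set 1, and CDH2 with CDH11 fills at least 99.1% of each set 2 bar.

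Epithelial markers differed between the sets in the direction of CDH1 and CDH3. Of 8 markers 7 were lower in set 2 by the 2-fold rule, all but CLDN4, which had no more than 0.302 CPM in any library. The summed level of the 8 was 459 to 572 CPM in set 2 and 2547 to 3009 CPM in set 1. KRT8 and KRT18 counts made up most of this sum in every library. Of 3 mesenchymal markers with an event, VIM and ZEB1 were higher in set 2, ZEB1 at no more than 2.14 CPM in any library. FN1 did not pass and went the other way, with a lower median in set 2 and overlapping sets. The part of the epithelial and mesenchymal markers in the cadherin levels was not tested. Nearness to CDH1 was measured on log2 of CPM + 0.5, centred on each gene's mean over the 6 libraries. Of 11016 genes, the nearest were GRHL2 (a grainyhead-like transcription factor), BSPRY, CDH3, USP10 (a deubiquitinase) and ATP2C2 (a Golgi calcium and manganese pump). Their Euclidean distances were 0.396, 0.456, 0.515, 0.622 and 0.660. GRHL2, BSPRY, USP10 and ATP2C2 had at most 0.242 CPM in any set 2 library, below the added 0.5. For these genes the distances therefore do not show that the fold between the sets was like that of CDH1. USP10 had 0.0320, 0.242 and 0.0628 CPM in set 2, against 75.3, 52.96 and 59.3 CPM in set 1. GRHL2 lies on chromosome 8 and BSPRY on chromosome 9. USP10 and ATP2C2 lie on chromosome 16 with 3 protein-coding genes between them, and the same chromosome holds CDH1, CDH3 and CDH11, of which CDH11 was higher in set 2.

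For CTNNA1, which encodes the alpha-catenin that links beta-catenin to actin, no level can be given. PC3 is known to lack alpha-catenin because of a homozygous deletion in this gene. On chromosome 5 no event was listed between the last position of HSPA9 events, 137910926, and 138348426, and the annotation places CTNNA1 in that order between HSPA9 and the next gene with a listed event. Every event of the RNA-seq table had at least 1 inclusion and 1 skipping count over all libraries, so an exon that is never skipped would not be listed either. The reason for the missing events was not tested.

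Inclusion levels differed between the sets at 2 of the 35 member events that had at least 20 counts in every library. The rule was no overlap of the sets and at least 5 percentage points between medians, which 2.72% of 90656 events passed. As lower in set 2, the direction of both member events, 1.57% passed. A lack of overlap alone was seen in 9.72%. Of the 35 events, 24 (68.6%) were included above 95% in every library, against 70.3% of all events with such counts. CDH1 and CDH3 had too few counts in set 2 for inclusion. All 8 CDH2 events were included at 98.8% or more in each library.

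The larger of the 2 differences was at the 21 nt AFDN exon. Its length-corrected inclusion was 42.7%, 42.5% and 33.4% in set 2, against 81.5%, 89.9% and 77.1% in set 1. The difference of medians was -38.9 percentage points. Each library held between 56 and 216 counts, and the exact 95% binomial intervals reached no higher than 53.8% in set 2 and no lower than 70.5% in set 1. Such intervals cover counting error only. No set 2 library came near the lowest set 1 library.

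The other AFDN events with inclusion between 5% and 95% in some library were a 196 nt exon, a 92 nt exon and a pair of 164 nt and 161 nt forms of 1 exon with acceptor sites 3 bases apart. They ranged from 91.5% to 100% in single libraries, and the sets overlapped for each. The 45 nt exon was included at 2.97%, 0.720% and 1.32% in set 2, against 0.371%, 0% and 1.24% in set 1, where the 0 comes from 151 counts. The 36 nt exon was at 0% in 5 libraries and at 0.577% in library 1 of set 1.

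JUP has a 109 nt exon in its 5′ UTR (chromosome 17, minus strand, 39929070 to 39929178) that was measured with 2 upstream exons, both of which are the first exon of the annotated transcripts that hold them. Joined to the nearer one, whose intron ends at 39942154, inclusion was 30.4%, 20.8% and 20.6% in set 2, against 39.6%, 49.5% and 39.0% in set 1. The sets did not overlap, and the medians differed by -18.8 percentage points. Set 2 libraries held 32 to 45 counts for it and those of set 1 held 74 to 139, and the exact 95% intervals of single libraries overlap between the sets. Joined to the farther one, at 39942839, inclusion was 7.65%, 3.50% and 4.76% in set 2, against 7.30%, 5.97% and 5.69% in set 1, and the sets overlapped. The 2 events share the junction on the other side of the exon, so a read across it counts as inclusion in both. Skipping counts of the near event were 24, 21 and 25 in set 2 and 42, 25 and 61 in set 1. Those of the far event were 157, 303 and 180 in set 2 and 686, 646 and 978 in set 1. Inclusion of the near event can therefore hold reads of transcripts that start at the farther exon. The part of such reads in its difference was not tested.

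In CDH11 the 179 nt coding exon near the 3′ end (chromosome 16, minus strand, 64982512 to 64982690), whose length breaks the reading frame, was rarely included. Inclusion was 4.79%, 3.78% and 3.997% in set 2, against 3.11%, 3.49% and 4.55% in set 1. The ranges overlapped although the level of the gene differed 6.79-fold. In CTNNB1 the 6 exons other than the 132 nt one were included at 99.5% or more in each library.

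**Figure D4:**
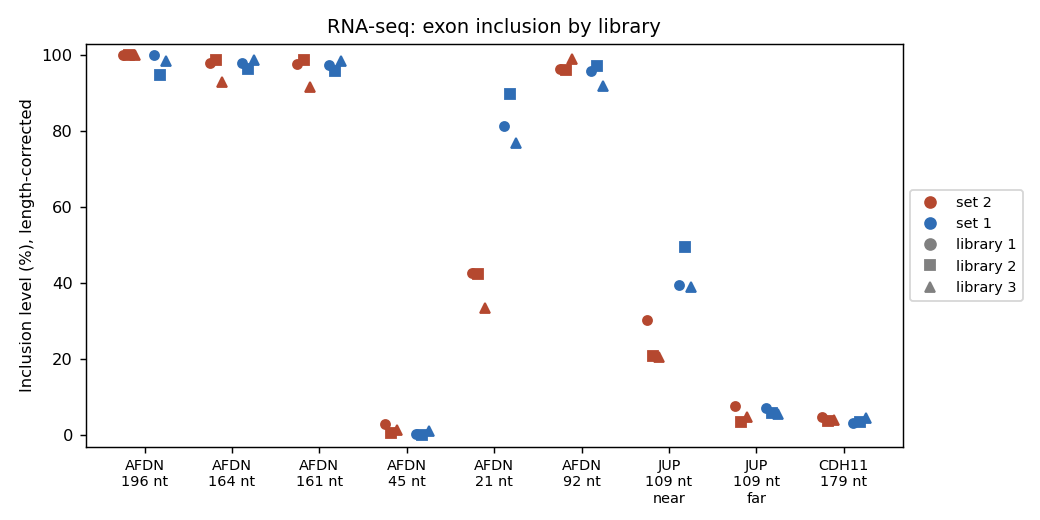
Length-corrected inclusion level in each RNA-seq library for the AFDN and JUP events between 5% and 95% in some library, with the rarely included 45 nt AFDN and 179 nt CDH11 exons. Near and far are the JUP upstream exons, and set 2 stands left of set 1. The 21 nt AFDN exon spans 33.4% to 42.7% in set 2 and 77.1% to 89.9% in set 1, and the near JUP event is the other one without overlap.

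Between the lines, RASL-seq measured AFDN through the 45 nt and 33 nt exons. Its total was 100.3, 57.2 and 88.0 scaled CPM in GS689, against 130.1, 144 and 106 in PC3E, from 48 to 98 counts per GS689 library and 94 to 111 per PC3E library. The means were 81.8 ± 22.2 in GS689 and 127 ± 19.3 in PC3E (SD, n = 3 each). No GS689 library reached the lowest PC3E library, as in 46.2% of all genes tested. The log2 change was -0.64 (SE 0.243), and it did not pass (limma-voom adjusted p = 0.0655, where 29.5% of 1322 genes or unnamed events passed, 14.2% as lower in GS689). With skipping counts alone it did pass, at -0.82 (limma-voom adjusted p = 0.0401).

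With the first count of each pair taken as inclusion, which the header does not state, the 45 nt exon was included at 2.47%, 15% and 17.1% in GS689, against 1.23%, 0% and 1.30% in PC3E. GS689 replicates 2 and 3 were high, and replicate 1 was near the PC3E libraries although it did not overlap them, as in 23.6% of tested events. Inclusion counts were 15 of 162 over the GS689 libraries and 2 of 250 over the PC3E libraries. PC3E replicate 2 had 0 of 92, which allows a share of up to 3.26%. Mean inclusion was 11.5% ± 7.90 in GS689 and 0.844% ± 0.732 in PC3E (SD, n = 3 each). The difference of 10.7 percentage points did not pass (quasi-binomial fit with limma-moderated dispersion, adjusted p = 0.0969), where 5.69% of 1124 events passed. It passed without GS689 replicate 1 (limma-moderated adjusted p = 0.0207, difference 15.2) and had adjusted p of 0.144 to 0.289 when any other library was left out. The 33 nt form had 0 of 39 counts in GS689, which allows up to 7.69%, and 0 of 63 in PC3E, which allows up to 4.76%. The 21 nt exon was not among the RASL-seq events. In RNA-seq the 45 nt exon was at 2.97% or less in every library.

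**Figure D5:**
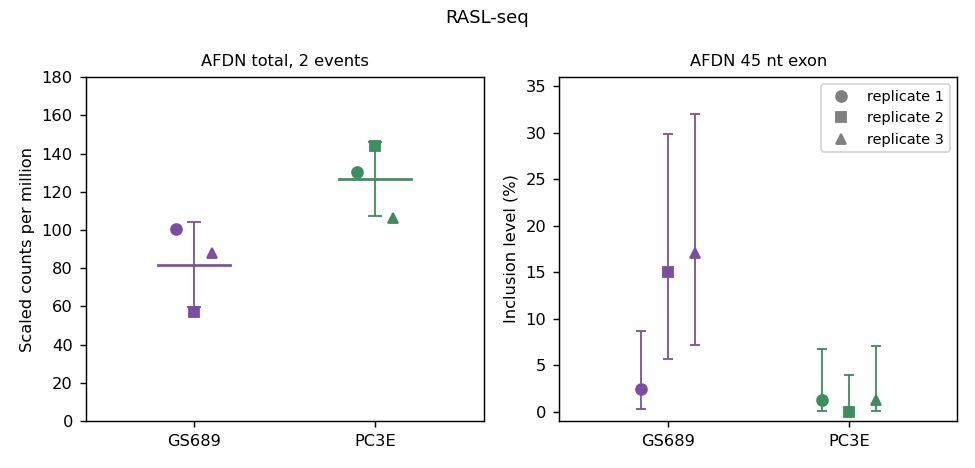
AFDN in RASL-seq, GS689 left of PC3E. On the left are scaled CPM of each library with mean and SD (n = 3 each); on the right is the inclusion level of the 45 nt exon in each library with its exact 95% binomial interval. Totals average 81.8 in GS689 and 127 in PC3E, and 2 of 3 GS689 libraries lie at 15% or more, where the PC3E libraries reach 1.30%.

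Other genes of the adherens junction were counted by list. Over 6 lists of 60 genes, 43 had a level in RNA-seq, and 2 were lower and 6 higher in set 2 by the 2-fold rule (18.6%, against 14.5% of all genes). The median log2 ratio was 0.31, against 0.10 over all genes. In RASL-seq 10 of the 60 were tested, and 2 fell and 5 rose in GS689 by limma-voom, where 14.2% of all those tested fell and 15.3% rose.

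Nectins and afadin partners held both of the lower genes and 2 of the 6 higher ones, among 8. NECTIN4, an epithelial nectin, had 0.0105 to 0.0907 CPM in set 2, against 2.22 to 4.76 CPM in set 1. PLEKHA7, which joins the junction to microtubules, had 17.9 to 23.1 CPM in set 2, against 35.9 to 52.5 CPM in set 1. NECTIN3 had 15.6 to 22.0 CPM in set 2, against 5.11 to 8.21 CPM in set 1. LMO7, an afadin-binding LIM protein, had 319 to 448 CPM in set 2, against 104 to 112 CPM in set 1. In RASL-seq LMO7 rose in GS689 (log2 change 1.55, SE 0.149, limma-voom adjusted p = 2.2e-05).

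Among 9 actin linkers of the junction ZYX (zyxin) alone passed the 2-fold rule, higher in set 2 at 716 to 1338 CPM, against 257 to 558 CPM in set 1, and it rose in GS689 in RASL-seq (log2 change 1.17, SE 0.302, limma-voom adjusted p = 0.0227). Of 8 genes of cadherin turnover 3 were higher in set 2, where 8.58% of all genes were, among them the phosphatase PTPRM and the scaffold IQGAP1. In RASL-seq PTPRM rose by 1.14 on the log2 scale in GS689 (SE 0.176, limma-voom adjusted p = 0.000646). Of 9 genes of the beta-catenin destruction complex 0 passed the 2-fold rule, and APC rose by 0.66 in GS689 (SE 0.224, limma-voom adjusted p = 0.0468). Of 6 other catenins with a level and 3 other cadherins 0 passed the 2-fold rule. In RASL-seq the totals of CTNND1 (p120 catenin, log2 change -0.67, SE 0.124, limma-voom adjusted p = 0.00212) and PKP4 (log2 change -0.86, SE 0.196, limma-voom adjusted p = 0.00686) fell in GS689.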

How the data were processed

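The submitters' processing notes list hg19 with kallisto 0.43.0 and STAR 2.5.2a, without their roles. The authors deposited 1 table per assay, whose cells hold several whole-number counts. Per the file headers, RASL-seq cells are pairs for named libraries, and RNA-seq cells give inclusion or skipping counts of 3 libraries of an unnamed set, with effective lengths. The RASL-seq header does not name the order of a pair, and the first count was taken as inclusion. Between 34 and 60 RASL-seq cells were empty per library, 0 in PC3E replicate 1, and were read as 0. The number of per-sample columns left unused was 0.

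Events were matched to 1 gene of GENCODE release 29, on another build, by structure (1934 RASL-seq and 109246 RNA-seq events). As checks, the opposite strand matched 1 and 6 events, and an intron lengthened by 7 bases matched 2 and 225. No coordinates were converted.

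RASL-seq totals were tested with limma-voom (limma 3.58.1, R 4.3.3), scaled by trimmed means of log ratios, in genes with about 10 counts in at least 3 libraries and 15 in all. Inclusion was tested with a quasi-binomial model, its dispersion moderated with limma and held at 1 or above, in events with a mean of 10 counts per library, 1 in each and 10 of the rarer form. Calls needed a Benjamini-Hochberg adjusted p under 0.05 and, for inclusion, 5 percentage points. Both were tested on simulated data. RNA-seq values have no test, since the header names no line. The text names all 8 genes, their events that pass the count minimum with inclusion of 5% to 95% in a library, the 5 genes nearest to CDH1 and up to 4 genes per list, plus rarely included exons, chosen after their values were seen. The values of 1 listed gene are not reported here. The members and lists were chosen with earlier results of these data known.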

Additional observations from a re-analysis of the deposited data

How the results depend on the processing

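Of all RASL-seq genes 390 were called, 386 to 395 under other scalings, pseudocounts or no low-count filter, and 252 of 902 with skipping counts alone, which test fewer genes; leaving out single libraries gave 277 to 485. Of all RASL-seq events 64 were called and 25 with limma on the log2 ratio at a pseudocount of 0.5, where the cause was not tested; 53 to 83 were called under the other settings without a block and 44 to 81 without single libraries. The AFDN total did not pass in any setting but skipping counts alone, its log2 change running from -0.40 without GS689 replicate 2 to -0.84 without GS689 replicate 1. The 45 nt AFDN exon also passed with no low-count filter (limma-moderated adjusted p = 0.0474). The labels give same-numbered libraries of the lines no link beyond the number. Their deviations from the line means correlated at 0.273, 0.176 and -0.00127, against -0.275 to 0.094 for differently numbered libraries. Whether same-numbered libraries shared a batch was not tested. With the replicate block 464 genes and 88 events were called, and the 45 nt exon passed (limma-moderated adjusted p = 0.0427).

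In RNA-seq 5 of the 7 genes passed the 2-fold rule under each scaling and pseudocount. Without library 1 or library 3 of set 2 the number was 4, JUP missing 2-fold with log2 ratios of -0.88 and -0.96, and it was 5 without any other library. It was 2 (CDH11 and JUP) with skipping counts alone, which CDH1, CDH2 and CDH3 hardly have (0.116%, 0.0526% and 0.236% of their counts). No gene changed direction in the 11 alternatives. The log2 ratio of CDH1 ran from -7.28 (pseudocount 0.05) to -0.32 (skipping counts alone), and that of CDH3 from -7.35 to -0.79. The 21 nt AFDN exon stayed between -43.5 and -36.7 percentage points and the near JUP event between -23.8 and -14.0. No CDH1 or CDH3 event had 20 counts in every set 2 library, so their inclusion was not compared.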
